A study of Mus musculus with 9 samples.

Results

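The 10 genes described here take part in loading peptides onto major histocompatibility complex (MHC) molecules and showing them to T cells, Ciita as a regulator. Of these, 7 belong to the class II route (H2-Aa, H2-Ab1, H2-Eb1, Cd74, H2-DMa, H2-DMb1 and Ciita) and 3 to the class I route (B2m, Tap1 and Tap2). They were chosen by gene name, taking every array probe whose name in the scanner files was 1 of the 10. This gave 17 probes, 12 for class II and 5 for class I, among 41174 probes on the array. All 17 were well above background on all 9 arrays and 0 were saturated, so all 10 genes were among the 17635 features tested. Liver RNA came from male C57bl/6J mice aged 16 weeks, an inbred strain, after 12 weeks on their diets. HFD+APS mice ate a high-fat diet (60 kcal% fat) into which Astragalus polysaccharides (APS), carbohydrates from a medicinal legume, were mixed at 40 g per kg. HFD mice ate that high-fat diet alone, and chow mice ate chow. Each group had 3 livers on 1 array each, selected by the submitters out of 24 mice after looking at liver histology and triglyceride. No group received APS with chow, so its effect without fat feeding was not measured.

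Class II molecules are pairs of an alpha and a beta chain that present peptides from engulfed material, mainly on dendritic cells, B cells and macrophages such as the Kupffer cells of the liver. Cd74, the invariant chain, escorts the newly made pair, H2-DM exchanges the last piece of Cd74 for a peptide, and CIITA is the transcriptional co-activator that class II genes depend on. Class I molecules are made by nearly all nucleated cells, hepatocytes included: the TAP1 and TAP2 transporter pumps cytosolic peptides into the endoplasmic reticulum, where they bind a heavy chain paired with beta-2 microglobulin, the product of B2m. Interferon gamma raises both routes.

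CIITA does not touch DNA itself but docks on factors bound at a pair of short elements upstream of class II genes, the X box (bound by RFX) and the Y box (bound by NF-Y). The bases just upstream of the start are shown for the 3 class II members in which a letter search found both, and for B2m as a class I contrast. Whether these letters have a part in the shared movement of class II genes between livers was not tested. They are RefSeq sequences of GRCm38.p6, 5′ to 3′ on the gene's strand. Capitals mark X letters (CTNGNAACT), Y letters (GATTGG, or its reverse complement) and, in B2m, interferon-response letters (ISRE: GAAA, any 2 bases, GAAA). These patterns were written after the members' promoters had been read.
H2-Aa (chr17:34287824-34287943, minus strand): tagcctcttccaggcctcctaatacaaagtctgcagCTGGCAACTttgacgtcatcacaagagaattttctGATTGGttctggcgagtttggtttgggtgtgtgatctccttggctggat
H2-Eb1 (chr17:34305747-34305866, plus strand): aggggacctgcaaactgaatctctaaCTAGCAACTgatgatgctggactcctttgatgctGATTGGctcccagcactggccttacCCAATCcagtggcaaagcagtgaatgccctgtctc
H2-DMb1 (chr17:34153071-34153190, plus strand): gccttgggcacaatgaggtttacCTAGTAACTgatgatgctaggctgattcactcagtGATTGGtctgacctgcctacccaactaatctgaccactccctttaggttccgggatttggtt
B2m (chr2:122147537-122147686, plus strand): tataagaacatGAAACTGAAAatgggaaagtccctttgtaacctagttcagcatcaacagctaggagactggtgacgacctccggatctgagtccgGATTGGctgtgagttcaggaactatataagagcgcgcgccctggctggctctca

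Promoter entries matched 6 of the 10 members (H2-Aa, H2-Eb1, H2-DMa, H2-DMb1, B2m and Tap1), and 4 were without an entry (H2-Ab1, Cd74, Ciita and Tap2). In H2-Aa and H2-DMb1 26 bases lie between the X and Y letters, and in H2-Eb1 25 do. X letters followed by Y letters at 19 to 26 bases, both on the gene's strand, occurred in 5 of 32851 promoters (0.0152%). The letters were written after the members' promoters had been read, and the longest gap searched equals the members' own. H2-Aa, H2-Eb1 and H2-DMb1 were thus bound to match, and the share is no support. The search covered 250 upstream bases, and pairs on the opposite strand were not counted. The other two genes with that pair were 1700048F04Rik and BC051142. Searched singly on both strands, X letters were in 3.47% of promoters, Y letters in 14.6% and the interferon-response letters in 2.98%. Y letters also lay upstream of H2-DMa, at -199 from the start, and on the opposite strand of Tap1, at -222. X letters were found in neither gene. With group means removed, H2-DMa correlated with H2-Aa at 0.99 over the livers. A match of letters describes the sequence and is not a measured binding site.

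On the arrays, 50.4 to 68.4% of spots were well above background. The share was 50.4 to 53.9% in HFD and 61.5 to 68.4% in chow. It was 54.1% in HFD+APS 1, and 63.5 and 64.5% in HFD+APS 2 and HFD+APS 3. Negative control spots had a mean raw signal of 65.9 to 70.9 in HFD and 49.5 to 50.2 in chow. In HFD+APS 1 it was 64.5, and in HFD+APS 2 and HFD+APS 3 44.7 and 47.1. HFD arrays thus had higher background and lower detection than chow arrays, which limits dim genes in comparisons with HFD. The arrays lay on 3 slides: 1 held HFD+APS 2 and HFD+APS 3, another HFD+APS 1 with the 3 HFD livers, and the third the 3 chow livers, so chow and its slide cannot be told apart. Arrays of 1 group correlated at 0.979 to 0.992 over all features, and arrays of different groups at 0.963 to 0.984. All 7 hepatocyte markers tested, among them Alb, were detected, as the label liver requires. Levels below are in log2 after division by each array's 75th percentile, so 0 is that percentile and a step of 1 is a 2-fold difference. They rank livers for 1 probe and do not rank genes. In whole liver, fewer cells of a type and less RNA per cell cannot be told apart.

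No class II gene passed the test in any diet comparison. The 7 genes instead varied together from liver to liver: HFD+APS 1 and HFD 3 were the 2 highest livers for 7 of 7 genes, and HFD+APS 2 or chow 2 was the lowest for 6 of 7. The count past the threshold (a limma p under 0.05 after Benjamini-Hochberg adjustment across every feature) was 0 of 7 for HFD+APS against HFD, where 1.38% of all features passed. It was 0 of 7 for HFD+APS against chow (3.58% of all features) and 0 of 7 for HFD against chow (10.8% of all features). At an unadjusted p under 0.05 the counts were also 0 of 7, where 17.7%, 25% and 31.3% of all features passed in the same order.

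The alpha chain gene H2-Aa read 0.68, -0.79 and 0.02 in the HFD+APS livers, against -0.17, -0.15 and 0.72 in HFD livers and 0.12, -1.14 and -0.03 in chow livers. Its beta partner H2-Ab1 read 3.50, 1.99 and 2.85 in HFD+APS, 2.61, 2.49 and 3.38 in HFD and 2.69, 2.05 and 2.71 in chow. For both genes all 3 groups overlapped, HFD+APS 1 and HFD 3 were the highest livers, and HFD+APS 2 and chow 2 the lowest. The beta chain gene H2-Eb1 read 1.57, 0.25 and 1.1 in HFD+APS, 0.73, 0.70 and 1.55 in HFD and 0.88, 0.51 and 0.89 in chow. The chow livers were the closest together, and again no group stood apart. C57BL/6 mice are known to lack the I-E molecule because the alpha chain gene H2-Ea is not expressed in them, and the H2-Ea probe was well above background on 0 of 9 arrays. The H2-Eb1 probe is described in the scanner files as an I-A beta chain sequence of NOD mice. Its position in their mm9 annotation, chr17:34452050-34452511, lies apart from the placed H2-Ab1 probes, at 34401723 to 34406118. Which transcript the probe reads was not tested.

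Cd74, the invariant chain, read 3.92, 2.50 and 3.27 in HFD+APS livers, against 3.02, 2.92 and 3.71 in HFD livers and 3.33, 2.42 and 3.21 in chow livers. HFD+APS 1 was the highest liver and chow 2 the lowest. The peptide exchangers followed: H2-DMa read -1.01, -2.09 and -1.35 in HFD+APS, -1.75, -1.66 and -0.79 in HFD and -1.65, -2.60 and -1.66 in chow. H2-DMb1 read 1.69, 0.36 and 1.08 in HFD+APS, 0.93, 0.80 and 1.80 in HFD and 0.85, 0.61 and 0.70 in chow. For both, HFD 3 was the highest liver, with HFD+APS 1 next. Ciita, the co-activator, read -0.91, -1.88 and -1.37 in HFD+APS, -2.26, -1.90 and -0.72 in HFD and -1.54, -1.55 and -2.06 in chow. It shared the 2 highest livers with the other 6 genes, but its lowest liver was HFD 1.

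**Figure D1:**
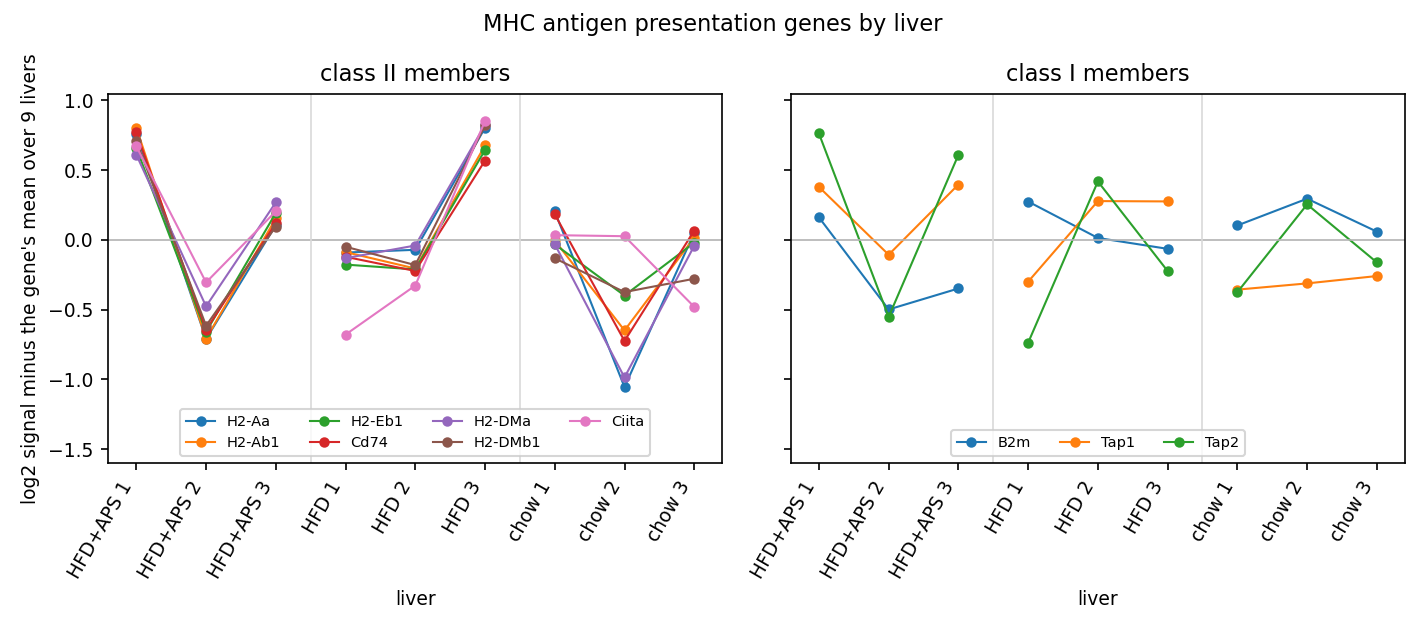
Log2 signal of each class II member (left) and class I member (right) in each of the 9 livers (x axis), minus that gene's mean over the livers; each point is 1 liver and lines join livers of 1 group, whose numbers have no order. The class II genes peak together in HFD+APS 1 and HFD 3 and sit low in HFD+APS 2, and the 3 class I genes together have no such shared order.

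Between HFD+APS and HFD the log2 changes of the class II genes lay between -0.16 (H2-Aa) and 0.24 (Ciita). Cd74 averaged 3.23 ± 0.71 in HFD+APS and 3.22 ± 0.43 in HFD (SD, n = 3 each), a log2 change of 0.01 ± 0.40 (SE; adjusted p = 0.996). The 95% intervals of the 7 genes for HFD+APS over HFD reached from 0.429-fold to 2.25-fold, so a 2-fold fall of H2-Aa or a 2-fold rise of Ciita lay inside its interval. On the slide shared by both groups, where HFD+APS 1 was the only liver with APS, the changes against the HFD livers were all positive, from 0.39 (H2-DMa) to 0.72 (Ciita). With 1 liver in that arm 0 of all features passed there, so these values are a description. In the fit over all arrays the median log2 change of the 7 genes was -0.04, against 0.00 over all features.

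Against chow, all 7 class II genes had positive log2 changes in both high-fat groups, and 0 of these 14 values passed the test. The comparisons share the chow livers. For HFD+APS against chow the changes ran from 0.21 (H2-Eb1) to 0.49 (H2-DMa), with a median of 0.32 and adjusted p between 0.473 and 0.746. For HFD against chow they ran from 0.09 (Ciita) to 0.57 (H2-DMa), with a median of 0.34 and adjusted p between 0.35 and 0.904. Over all features the medians were -0.04 and -0.05. H2-DMa, with the highest value in both, averaged -1.48 ± 0.56 in HFD+APS, -1.40 ± 0.53 in HFD and -1.97 ± 0.55 in chow (SD, n = 3 each). Its SD was 0.31 between group means and 0.54 within groups. The 95% intervals reached from 0.599-fold to 2.60-fold for HFD+APS over chow and from 0.559-fold to 2.91-fold for HFD over chow. Leaving out 1 liver turned the sign of 4 of the 7 class II genes in HFD+APS against chow and of 3 in HFD against chow.

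**Figure D2:**
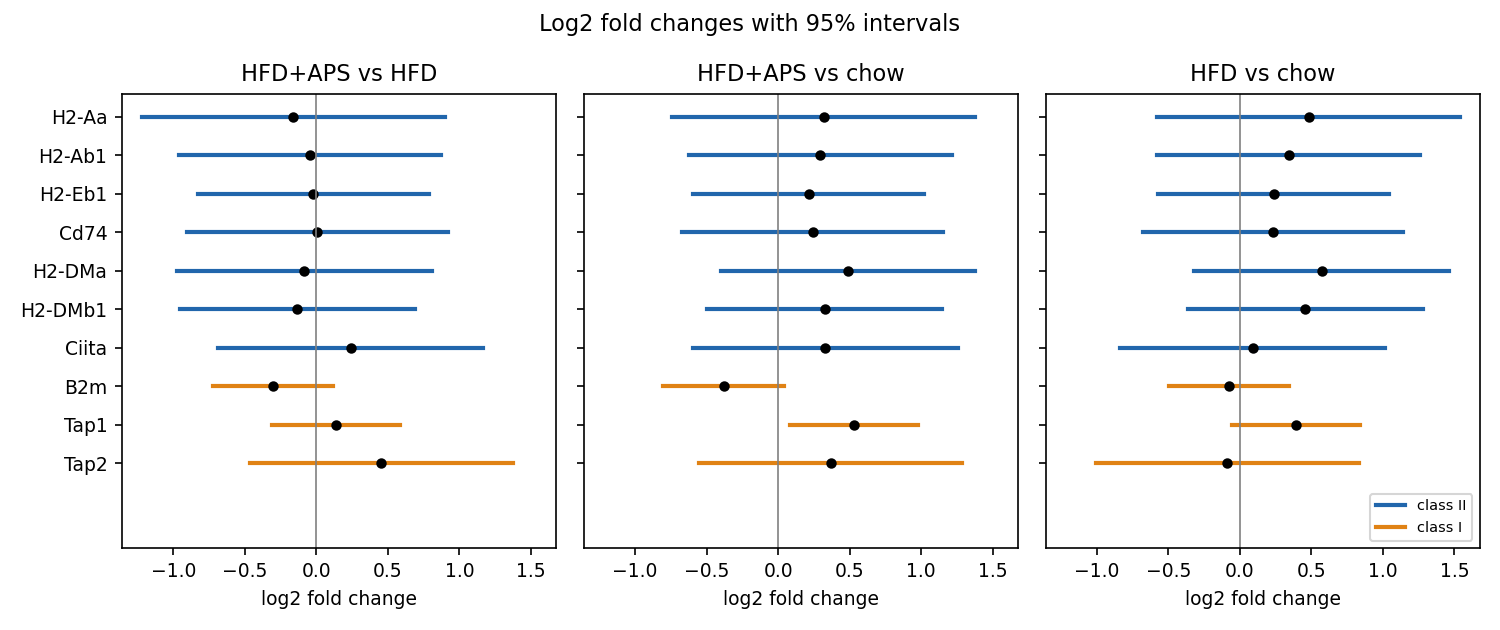
Log2 fold change (point) and 95% interval (bar, from the limma fit over 9 livers) of each member in the 3 comparisons; blue marks class II and orange class I. Every class II interval crosses 0, and the interval of Tap1 in HFD+APS vs chow does not, at 0.08 to 0.98. In that comparison 25% of all features had an unadjusted limma p under 0.05.

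The spread between livers of 1 group was wide for class II. The within-group SD, pooled over the 3 groups, was 0.49 (H2-Eb1) to 0.65 (H2-Aa), and 87.2 to 93.7% of all features had a smaller one (median of all features 0.215). Among features of similar brightness the share with a smaller SD was 91.9 to 98%. Scatter between spots of 1 array, which covers neither labelling nor slide, was 0.0351 to 0.0759 (SD) for the H2-Ab1 probe printed at 10 spots, whose SD between livers of 1 group was 0.69. For the B2m probe printed at 10 spots it was 0.0703 to 0.211, with 0.26 between livers.

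**Figure D3:**
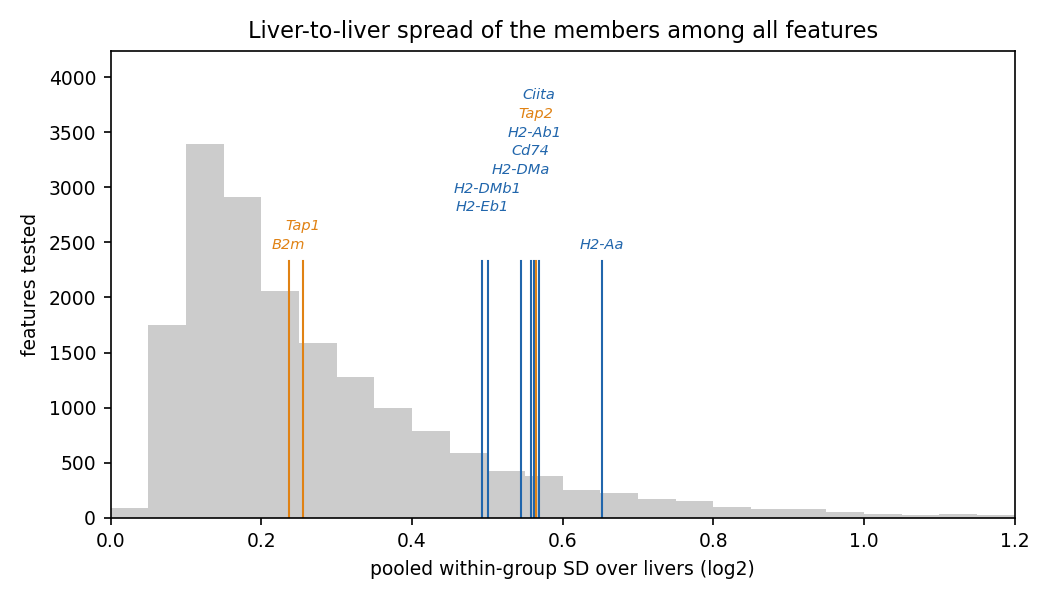
Histogram of the pooled within-group SD (log2, x axis) of all 17635 features (grey bars; features above 1.2 are not drawn), with the members marked (blue class II, orange class I). The 7 class II genes and Tap2 lie at 0.49 to 0.65, to the right of most features, while B2m and Tap1 lie at 0.24 and 0.26.

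The shared pattern did not need the diet groups. With group means removed, the 21 pairs of class II genes correlated at 0.61 to 0.99 (median 0.92) over the 9 livers, which share 1 scaling step per array. The tightest pairs joined H2-Aa with Cd74, H2-Aa with H2-DMa and H2-Ab1 with Cd74, each at 0.99, and the loosest was H2-Aa with Ciita at 0.61. The 21 pairs of a class II and a class I gene correlated at 0.08 to 0.67 (median 0.41). Averaged over the 7 genes and centred, class II stood at 0.71, -0.59 and 0.16 in HFD+APS, at -0.19, -0.18 and 0.74 in HFD and at 0.03, -0.59 and -0.10 in chow. HFD+APS thus held 1 of the highest and 1 of the lowest livers.

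**Figure D4:**
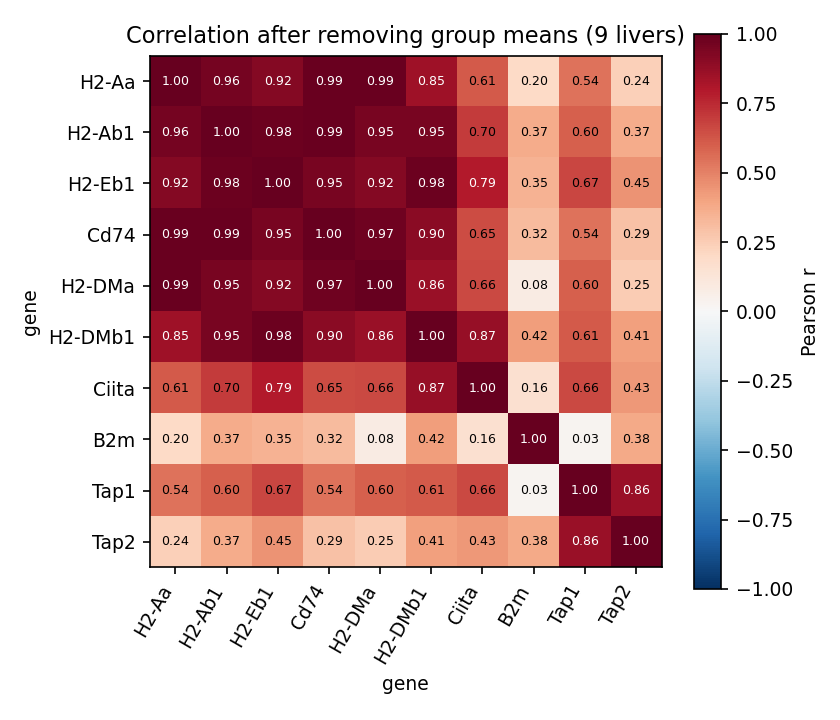
Pearson correlation between members over the 9 livers after each group's mean was subtracted; colour and printed value give r. The class II block runs from 0.61 to 0.99, with Ciita the loosest, and the class I genes pair at 0.03 to 0.86.

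With group means removed, the transporter genes Tap1 and Tap2 correlated at 0.86, and B2m correlated with them at 0.03 and 0.38. Of the 3 class I genes 0 passed in HFD+APS against HFD (1.38% of all features), HFD+APS against chow (3.58%) and HFD against chow (10.8%). Tap1, a subunit of the peptide transporter, read -1.09, -1.57 and -1.07 in HFD+APS, -1.77, -1.19 and -1.19 in HFD and -1.82, -1.78 and -1.73 in chow. All 3 HFD+APS livers lay above all 3 chow livers, as they did for 12.4% of all features. Its log2 change was 0.53 ± 0.20 (SE; 1.45-fold; adjusted p = 0.143, unadjusted p = 0.0252). An unadjusted limma p under 0.05 was reached there by 25% of all features. Under the alternatives with all livers kept, that change ran from 0.20 to 0.60. In HFD against chow the log2 change of Tap1 was 0.39 ± 0.20 (adjusted p = 0.207), with HFD 1 inside the chow range. With normexp background correction it was 0.15. Tap2, the other transporter subunit, read -1.05, -2.36 and -1.20 in HFD+APS, -2.55, -1.39 and -2.03 in HFD and -2.18, -1.56 and -1.97 in chow. Its groups overlapped, and its log2 changes of 0.45, 0.37 and -0.09 for HFD+APS over HFD, HFD+APS over chow and HFD over chow had adjusted p of 0.586, 0.611 and 0.906.

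B2m, the light chain of every classical class I molecule, read 8.16, 7.50 and 7.65 in HFD+APS livers, against 8.27, 8.01 and 7.93 in HFD livers and 8.10, 8.29 and 8.06 in chow livers. HFD+APS 2 and HFD+APS 3 were the lowest of the 9, and HFD+APS 1 lay within the other groups. B2m averaged 7.77 ± 0.35 in HFD+APS and 8.15 ± 0.13 in chow (SD, n = 3 each), a log2 change of -0.38 ± 0.18 (SE; adjusted p = 0.239). With arrays weighted by quality it passed, at -0.46 (adjusted p = 0.0468), where 3555 of 17635 features passed, against 631 in the main fit. The weights were 0.39 for HFD+APS 1, 1.14 for HFD+APS 2 and 2.46 for HFD+APS 3. On the slide shared with HFD, HFD+APS 1 differed from the HFD livers by 0.09, against -0.30 over all arrays, and HFD+APS 2 and HFD+APS 3 had a slide of their own. The part of the slide in this difference was not tested.

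Several members had more than 1 probe. The 4 H2-Ab1 probes gave HFD over chow changes of 0.34 to 0.89. The 2 H2-Aa probes gave 0.39 and 0.48, and the 2 H2-DMb1 probes 0.46 and 0.69. Probes of 1 class II gene thus shared a sign there. For HFD+APS over HFD the H2-Ab1 probes ran from -0.04 to 0.22 and differed in sign. Those of H2-Aa (-0.16 and -0.12) and H2-DMb1 (-0.18 and -0.13) did not. The second H2-DMb1 probe is annotated to H2-DMb2 as well, its near-copy. The 3 B2m probes disagreed: in HFD+APS against chow they gave -0.38, -0.76 and 0.34, with adjusted p of 0.25, 0.0794 and 0.301 in a fit over all probes. The probe with the positive value is annotated to a separate cDNA clone. Member probes with a position in the files' mm9 annotation lay on chromosome 17 (H2-Aa, H2-Ab1, H2-Eb1, H2-DMa, H2-DMb1, Tap1 and Tap2), 2 (B2m), 16 (Ciita) and 18 (Cd74), and 1 of the 4 H2-Ab1 probes had no position. The probes used for H2-Aa, Tap1 and B2m lay at chr17:34421285-34421344, chr17:34330854-34330913 and chr2:121978401-121978460, and whether they are exonic was not analysed here.

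Genes that feed the class II route changed in part. Of 14 tested other class II pathway genes, 0 changed in HFD+APS against HFD (0.437% of all features rose and 0.947% fell), 1 rose in HFD+APS against chow (0.913% rose and 2.67% fell), and 2 rose and 0 fell in HFD against chow (4.3% rose and 6.48% fell). Ifi30, a lysosomal thiol reductase that unfolds antigens, read 0.77, 0.42 and 1.18 in HFD livers, against -0.11, -0.85 and -0.25 in chow livers. Every HFD liver was above every chow liver, as for 16.1% of all features. Its log2 change was 1.19 ± 0.26 (2.28-fold; adjusted p = 0.0292), and the call was lost without chow 2, chow 3, HFD 1 or HFD 3 (adjusted p up to 0.0856) or with slide as a random block (adjusted p = 0.0678). Lgmn, a lysosomal protease that cuts antigens, rose by 0.84 ± 0.22 (adjusted p = 0.0498), a call lost on leaving out any liver except HFD+APS 1 (adjusted p up to 0.148), with slide as a random block (0.108), after quantile normalization (0.069) and in the authors' deposited table (0.0678). Rfxank, a subunit of the RFX complex that binds the X box, read 1.25, 1.38 and 1.20 in HFD+APS against 0.65, 0.45 and 0.32 in chow. It rose by 0.80 ± 0.12 (adjusted p = 0.0202), and lost the call without HFD+APS 2, HFD+APS 3, chow 2 or chow 3 (adjusted p up to 0.0892). Its log2 change against HFD was 0.55 ± 0.12 (adjusted p = 0.0701). H2-Eb2, H2-DMb2 and H2-Ea were well above background on 0 arrays and H2-Ob on 2, so they were not tested.

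Other class I pathway genes held the largest difference of both pathway lists, in H2-Q1. Of 23 tested, 0 rose and 2 fell in HFD+APS against HFD (0.437% of all features rose and 0.947% fell). In HFD+APS against chow 1 rose and 1 fell (0.913% of all features rose and 2.67% fell). In HFD against chow 4 rose and 0 fell (4.3% of all features rose and 6.48% fell). H2-Q1, a class I heavy chain gene of the Q region and so a non-classical one, read -2.16, -2.10 and -2.15 in HFD+APS livers, against 1.14, 0.45 and 0.69 in HFD livers and -1.42, -1.21 and -1.25 in chow livers. The groups did not overlap in any pair: every HFD liver was above every chow liver, and every HFD+APS liver was below both. Of all features, 16.1% lay higher in every HFD than in every chow liver. The share lower in every HFD+APS liver was 11.7% against HFD and 18.6% against chow. The log2 change was -2.90 ± 0.17 for HFD+APS against HFD (0.134-fold; adjusted p = 0.000623) and 2.05 ± 0.17 for HFD against chow (4.14-fold; adjusted p = 0.00154), and no left-out liver ended either call. With normexp background correction the first was -1.93, still called. On the shared slide HFD+APS 1 differed from the HFD livers by -2.92, with adjusted p = 0.222 there, where 0 of all features passed, and 0.0658 with slide as a fixed block. Against chow it fell in HFD+APS by 0.85 ± 0.17 (adjusted p = 0.0403), a call lost without HFD+APS 2, HFD+APS 3 or any 1 chow liver (adjusted p up to 0.137), with slide as a random block (0.0808) and with normexp (-0.42, adjusted p = 0.119). The value rests on 1 probe (chr17:35461951-35462010, mm9), well above background on all 9 arrays. The longest run of bases it shared with another gene's probe on the array was 15, and matches to the transcripts of other Q genes were not analysed here.

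H2-Q10, which codes for a class I protein secreted by the liver, read 8.09, 7.90 and 7.73 in HFD+APS and 8.79, 8.59 and 8.50 in HFD. It fell by 0.72 ± 0.13 (adjusted p = 0.0435), a call lost on leaving out any liver except HFD+APS 1 (adjusted p up to 0.132), and its 5 probes ran from -0.72 to 0.39. With slide as a random block the call was lost too (adjusted p = 0.0658). On the shared slide, and with slide as a fixed block, H2-Q10 differed by -0.54 (adjusted p = 0.458 and 0.289). Psmb9, an interferon-inducible subunit of the immunoproteasome that cuts class I peptides, read 3.49, 3.21 and 3.37 in HFD+APS, 3.56, 3.58 and 4.12 in HFD and 2.42, 2.40 and 2.55 in chow. It rose by 1.30 ± 0.16 in HFD against chow (2.46-fold; adjusted p = 0.0069), a call that held whichever liver was left out. In HFD+APS against chow it rose by 0.90 ± 0.16 (adjusted p = 0.0333), a call lost without HFD+APS 2, HFD+APS 3, HFD 2 or any 1 chow liver (adjusted p up to 0.121), with slide as a random block (0.0681) and in the authors' deposited table (0.0503). The T-region class I genes H2-T24 (1.04 ± 0.19, adjusted p = 0.0191) and H2-T22 (0.60 ± 0.14, adjusted p = 0.0318) rose in HFD against chow. H2-T24 lost the call without HFD 2, HFD 3, chow 3 or chow 2 (adjusted p up to 0.0616), or with normexp background correction (0.39, adjusted p = 0.0506), and H2-T22 without HFD+APS 3, HFD 1, HFD 3 or any 1 chow liver (adjusted p up to 0.0812) or with slide as a random block (0.0719). The classical heavy chains present peptides to CD8 T cells: H2-K1 had log2 changes of -0.09, -0.09 and 0.00 and H2-D1 of -0.15, -0.04 and 0.11 for HFD+APS over HFD, HFD+APS over chow and HFD over chow. Nlrc5, the class I counterpart of Ciita, stood at 0.24, -0.20 and -0.44 in the same comparisons, and 0 of these values passed.

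**Figure D5:**
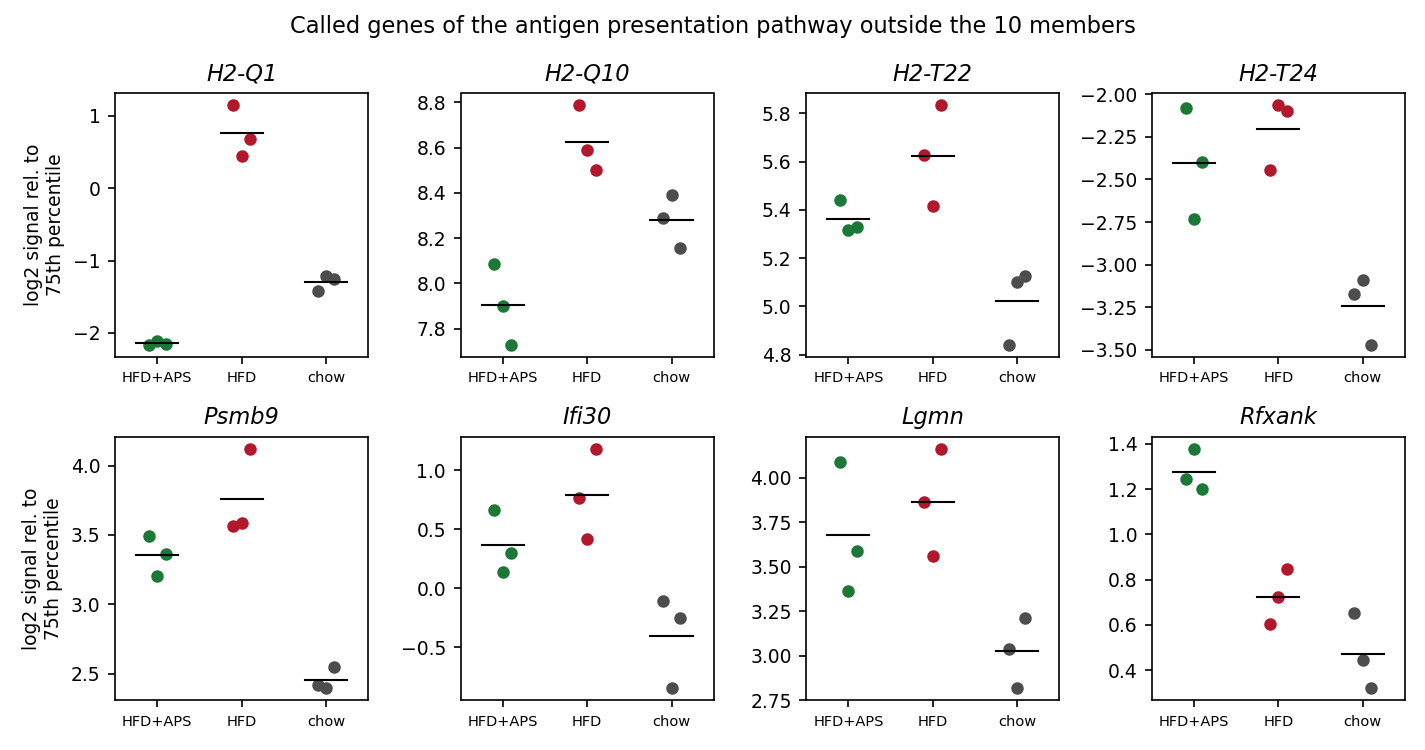
Log2 signal over the 75th percentile of its array (y axis, scaled per panel) of the 8 called genes of the other class I and class II pathway lists in HFD+APS, HFD and chow; each dot is 1 liver and bars are group means. H2-Q1 is high in the 3 HFD livers and lowest in HFD+APS, whereas Rfxank is highest in HFD+APS.

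Of 13 interferon gamma signalling genes 0 passed in HFD+APS against HFD (1.38% of all features), HFD+APS against chow (3.58%) or HFD against chow (10.8%). Ifng itself, the cytokine, was well above background on all HFD+APS and chow arrays but on 1 HFD array, and averaged -3.64 ± 0.33 in HFD+APS, -3.40 ± 0.48 in HFD and -3.42 ± 0.20 in chow (SD, n = 3 each). Irf1, an interferon-induced transcription factor, had log2 changes of 0.12, 0.39 and 0.28 for HFD+APS over HFD, HFD+APS over chow and HFD over chow. Both co-stimulation genes tested, Cd80 and Cd86, also stayed short of the threshold.

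Markers of the cells that carry class II are given for their liver-to-liver values. Over the 9 livers, 653 of 17635 features (3.7%) correlated with the mean of the scaled class II genes at 0.7 or more, and these livers share their scaling and their slides. Of the other class II pathway genes 4 of 14 did. These were the lysosomal proteases Ctss (0.854), Ctsl (0.834) and Lgmn (0.753), and Marchf1 (0.744), a ligase that removes class II from the surface. Of 13 interferon gamma signalling genes, which ran from -0.148 to 0.846, 3 did. Among them was Ifng (0.774), a dim gene well above background on only 1 HFD array. Dendritic cell markers did in 2 of 7 cases, Kupffer cell markers in 1 of 7 and T and NK cell markers in 1 of 7. The T and NK cell marker was Cd3g (0.831), which was well above background on only 1 HFD array. Of 23 other class I pathway genes 1 did. Of B cell, monocyte, sinusoidal endothelial, stellate and hepatocyte markers 0 did. The median correlation was 0.632 for Kupffer cell markers, 0.616 for monocyte and recruited macrophage markers, 0.597 for interferon gamma signalling and 0.546 for the co-stimulation genes. It was 0.496 for dendritic cell, 0.474 for T and NK cell, 0.472 for sinusoidal endothelial, 0.471 for B cell and 0.341 for stellate cell markers. Hepatocyte markers had a median of -0.0567 and all features one of -0.101, so the marker lists of all non-hepatocyte cell types lay above the median of all features. The features most like class II were Rab19 (0.958), Ptpn18 (0.951), Hcst (0.948), Ppp1r18 (0.94), Adcy7 (0.936) and Tnfaip8l2 (0.933), and those most like the class I mean were Slc25a30 (0.886), Cntfr (0.884), Apof, Glyr1 and Atf6b (0.88 each) and Hoxa6 (0.875).

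The summed level of the 7 class II genes, in units of the array's 75th percentile, was 13.2 to 35.3 in HFD+APS, 18.1 to 32.8 in HFD and 13.4 to 21.9 in chow. That of the 7 Kupffer cell markers was 44.4 to 94.2 in HFD+APS, 57 to 88.7 in HFD and 35.2 to 51.6 in chow. That of the 5 monocyte and recruited macrophage markers was 36.5 to 62.1 in HFD+APS, 64.2 to 73.9 in HFD and 19.4 to 45 in chow. Dendritic cell markers (7 tested) summed to 1.36 to 2.01 in HFD+APS, 1.29 to 2.23 in HFD and 1.49 to 1.82 in chow, with Cd209a and Siglech well above background on 0 arrays. B cell markers (6 tested) summed to 0.903 to 1.90 in HFD+APS, 1.04 to 2.31 in HFD and 0.984 to 3.35 in chow, with Pax5 on 0 arrays. T and NK cell markers (7 tested) summed to 0.722 to 1.17 in HFD+APS, 0.751 to 1.32 in HFD and 1.12 to 1.28 in chow. Of these 7 markers 5, 4 and 4 were not well above background on HFD 1, HFD 2 and HFD 3. On each chow array it was 0 or 1, and on each HFD+APS array 0 to 2. Of the 6 B cell markers it was 5, 3 and 1 on the HFD arrays, 0 to 2 on chow and 0 or 1 on HFD+APS arrays. The B cell and T and NK sums thus rest partly on values near background. Sinusoidal endothelial (6) and stellate (6) markers summed to 57.6 to 66.2 and 102.6 to 119.5 in HFD+APS, 53.7 to 64.6 and 104.9 to 120.7 in HFD, and 27.6 to 42.3 and 64 to 113.1 in chow. The HFD sums of the Kupffer, monocyte and endothelial lists lay above all chow sums, as did the HFD+APS sums of the endothelial list. Such a sum gives its brightest probes the most weight. In HFD against chow 0 of 7 Kupffer, 2 of 5 monocyte and 2 of 6 endothelial markers rose past the threshold, as did 4.3% of all features. Of the Kupffer changes 6 were positive and 1 negative (Marco, -0.57). Of single features, 16.1% lay higher in every HFD than in every chow liver and 12.4% in every HFD+APS than in every chow liver. The part of cell numbers in the class II values was not tested.

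Of 7 dendritic cell markers 1 fell and 0 rose in HFD against chow, where 6.48% of all features fell and 4.3% rose. Their log2 changes were positive for 3 and negative for 4, up to 0.77 (Itgax). Xcr1, a receptor of cross-presenting dendritic cells, fell by 1.27 ± 0.19 in HFD against chow (adjusted p = 0.0116; -0.59 with normexp, still called) and by 0.89 ± 0.19 in HFD+APS against chow (adjusted p = 0.0469), the second lost without HFD+APS 2, HFD+APS 3, HFD 2 or any 1 chow liver (adjusted p up to 0.138), with slide as a random block (0.0945) and with normexp (-0.45, adjusted p = 0.0674). Ly6c2, a monocyte surface protein, rose by 1.88 ± 0.26 in HFD against chow (adjusted p = 0.00908) whichever liver was left out. Trem2, which marks macrophages that handle lipid, rose by 2.32 ± 0.49 (adjusted p = 0.0273), a call lost once HFD 3, chow 2 or chow 3 was removed (adjusted p up to 0.0934) or with slide as a random block (0.0639). Its log2 change was 1.40 with normexp. The endothelial Clec4g (0.79 ± 0.19) and Oit3 (0.91 ± 0.24) rose and the hepatocyte enzyme Tat (-0.74 ± 0.18) fell in HFD against chow, and endothelial Fcgr2b (1.13 ± 0.25) rose in HFD+APS against chow. For these 4 genes, leaving out any of 8 of the 9 livers ended the call (adjusted p up to 0.14), and so did slide as a random block (0.0867, 0.0959, 0.0745 and 0.0947). As the mean of a gene's probes Clec4g was 0.38 (adjusted p = 0.14), and Oit3 (0.1) and Fcgr2b (0.0562) also lost the call. Cd4, the helper T cell co-receptor, was well above background on 2 HFD+APS, 0 HFD and 3 chow arrays, so it entered the test through the chow livers, where it was highest, and its call is no support. Its log2 change in HFD against chow was -0.73 in the main scaling. It was -0.42 in the authors' deposited table and -0.17 with normexp, short of the threshold in both.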

How the data were processed

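The authors deposited 1 Agilent scanner file per liver (Cy3, 1 colour; Feature Extraction 10.7.1.1 per the file headers) and a value table. The intensity used, deposited for each spot, had its background subtracted and spatial trend removed by the scanner software, per the file headers, with no scaling between arrays. The deposited table is on the log2 scale; from the values its columns correlated at 0.9969 to 0.99988 with the scanner values and had medians of 4.98 to 5.00, it is not centred by gene, and its normalization step is not given in the sources used here. The submitters' processing notes also name limma.

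From 45018 spots per array (1639 controls) flagged spots were left out, replicate spots averaged and the 75th percentile (214.4 to 272.8) subtracted in log2. Probes well above background on at least 3 of 9 arrays entered, whatever the group, with the brightest probe per gene. Names came from RefSeq (GRCm38.p6). All 9 livers entered 1 limma 3.58.1 fit (R 4.3.3; lmFit, eBayes; 6 residual degrees of freedom), with Benjamini-Hochberg adjustment over 17635 features, and the code was tested on simulated data. The 3 comparisons share groups. The number of arrays limits precision, and p-values measure the spread between these selected livers. Slides follow from array barcodes.

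The members and the 14 gene lists were chosen with earlier results of these data known. Named were all 10 members, up to 6 called genes per list by smallest p, H2-K1, H2-D1, Nlrc5, Ifng, Irf1 and H2-Ea, and the 6 features most correlated with each class mean that have no clone-like name. A further gene under this rule is not reported here. The lists are the members, other class II and class I pathway genes, interferon gamma signalling, co-stimulation, and markers of B cells, dendritic cells, Kupffer cells, monocytes and macrophages, T and NK cells, sinusoidal endothelium, stellate cells and hepatocytes. Alternatives changed normalization, background correction, source of values, dim-probe filter, probe choice, names, array weights, slide, replicate block, samples in the fit and left-out livers; fitting each member probe alone was added after seeing the data. Fits that left out 2 livers picked for their class II levels were run and dropped, since the outcome had chosen the livers; in 1 of them B2m was called in HFD+APS against chow.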

Additional observations from a re-analysis of the deposited data

How the results depend on the processing

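The count of class II members called stayed at 0 in every comparison under every alternative listed, and so did that of class I members, except that 1 (B2m) was called in HFD+APS against chow with array weights. Counts over all features moved more. For HFD+APS against HFD they were 244 in the main fit, 80 without a filter on dim probes, 1287 with array weights, 17 with slide as a fixed block, 0 within the shared slide, 83 with a replicate block and 25 with only the 2 groups compared. For HFD+APS against chow they were 631, 232 without the filter, 3555 with weights, 163 with slide as a random block, 297 with the replicate block and 350 with only the 2 groups compared. For HFD against chow they were 1902, 806 without the filter, 3473 with weights and 677 with slide as a random block. Leaving out 1 liver gave 51 to 571, 28 to 1568 and 334 to 2678 in that order. Replicate numbers do not pair the livers: deviations of same-numbered livers correlated at -0.18 to 0.16, and with the number as a replicate block 0 members were called.

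Signs that turned belonged to values short of the threshold, and the cause was not tested. In HFD+APS against HFD, slide as a fixed block and the shared slide alone both gave H2-Aa 0.55, H2-Ab1 0.68, H2-Eb1 0.57, H2-DMa 0.39, H2-DMb1 0.51, B2m 0.087, H2-K1 0.042, H2-D1 0.12, Ifng 0.081 and Irf1 -0.062 (log2). Array weights gave H2-Ab1 0.0016, H2-Eb1 0.062 and H2-DMa 0.024, slide as a random block H2-Ab1 0.059 and H2-Eb1 0.065, normexp Cd74 -0.0054 and the mean of detected probes H2-Ab1 0.038. Against chow, H2-K1 in HFD+APS was 0.0043 after quantile normalization, 0.00052 in the authors' table and 0.018 as the mean of probes. In HFD against chow, H2-K1 was -0.0027 with normexp and -0.0097 with random slide, B2m 0.027 in the authors' table, Tap2 0.072 and Ifng -0.070 with weights, and Ifng -0.010 with random slide.

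Leaving out 1 liver turned signs within these ranges. In HFD+APS against HFD they were -0.52 to 0.22 (H2-Aa), -0.41 to 0.35 (H2-Ab1), -0.32 to 0.34 (H2-Eb1), -0.34 to 0.37 (Cd74), -0.32 to 0.22 (H2-DMa), -0.46 to 0.21 (H2-DMb1), -0.072 to 0.69 (Ciita), -0.053 to 0.30 (Tap1), -0.14 to 0.50 (Irf1), -0.041 to 0.41 (Nlrc5) and -0.45 to 0.019 (Ifng). In HFD+APS against chow they were -0.076 to 0.70 (H2-Aa), -0.065 to 0.69 (H2-Ab1), -0.083 to 0.58 (H2-Eb1), -0.10 to 0.60 (Cd74), -0.15 to 0.00030 (H2-K1) and -0.18 to 0.060 (H2-D1). In HFD against chow they were -0.044 to 0.38 (H2-Eb1), -0.050 to 0.40 (Cd74), -0.36 to 0.40 (Ciita), -0.39 to 0.19 (Tap2), -0.050 to 0.091 (H2-K1), -0.24 to 0.23 (Ifng) and -0.11 to 0.53 (Irf1). Among called genes in HFD against chow, normexp ended the calls of H2-T24, Cd4 (-0.17, adjusted p = 0.358) and Clec4g (0.0606), and in HFD+APS against chow those of H2-Q1 (-0.42, adjusted p = 0.119) and Xcr1 (-0.45, adjusted p = 0.0674). Testing without the dim-probe filter, which adds features, ended those of Lgmn, Ifi30, H2-T22, Trem2, Cd4, Clec4g, Oit3 and Tat in HFD against chow, H2-Q10 in HFD+APS against HFD, and H2-Q1, Psmb9, Xcr1 and Fcgr2b in HFD+APS against chow (adjusted p 0.0516 to 0.0995). The mean of its probes put H2-Q10 in HFD+APS against HFD at -0.33 (adjusted p = 0.135). Signal over background limits the dim genes Ifng, Cd4 and Nlrc5, which not every HFD array measured. The HFD against chow change of Nlrc5 was -0.44 in the main fit and -0.065 with normexp.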
